A study of Zea mays with 4 samples.

Results

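HRGP, grp1, RGP and bk4, genes placed by name with those of the plant cell wall, were followed through the total RNA of maize root tips. In the files they are GeneID:542371 (HRGP, symbol LOC542371), GeneID:542725 (grp1, LOC542725), GeneID:542592 (RGP, LOC542592) and GeneID:100274504 (bk4). They were picked by gene number from a table of 48174 genes, and were chosen by their names and by their levels in these same libraries. Their levels and ranks are therefore given as a description, with no test. All 4 genes were found in the table. The samples were 4 biological replicates of 1 group, so there was no second condition. Seedlings of the B73 inbred line, 3 days old, were held at 28 °C for 2 h in swirled water. The last 1 mm of primary and seminal roots was pooled, so a value cannot be given to either root type. The sources used here do not say whether the replicates were sown separately, so p-values describe the spread of these samples, which may be technical.

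The wall of a growing root cell is laid down as cellulose fibres in a matrix of other polysaccharides and structural proteins. Hydroxyproline-rich glycoproteins include the extensins, secreted proteins whose hydroxyprolines carry chains of arabinose and which can be cross-linked into the wall. The name HRGP does not say whether that gene encodes an extensin. Reversibly glycosylated proteins, in rice and Arabidopsis, interconvert the ring forms of UDP-arabinose, the donor of arabinose for such glycans and for arabinoxylan. Glycine-rich proteins fall into several unrelated kinds, among them structural wall proteins and RNA-binding proteins. The brittle stalk genes of maize are named for mutants whose stems snap. bk2 encodes a COBRA-like protein that acts in cellulose deposition, while bk4 encodes a chitinase-like protein.

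The files hold gene numbers and counts only, and the gene table used for names holds neither descriptions nor protein sequences. Whether grp1 encodes a wall protein or an RNA-binding protein could therefore not be checked, and its place among wall genes rests on its name. The description as abundant held for 3 of the 4. HRGP, grp1 and RGP were among the 43 genes at 1000 CPM or more (a gene's counts scaled to a library total of 1e+06), and bk4 was not.

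Library totals ran from 23385589 to 26829395 counts. For a gene with no count the upper limit was 0.112 to 0.128 CPM, the level of 3 counts, and this limit covers counting error only. The root tip label was set beside marker genes, which were chosen with earlier results of these data known and so are no independent check. The first were genes of dividing and patterning tissue. pcna1, MCM6, RNRL1, SCR and PIN1a had mean levels from 40.3 to 245 CPM. The leaf gene CAB1 stood at 0.567 ± 0.190 CPM (SD, n = 4), and ssu1, which encodes a Rubisco small subunit, had no count in any library. A further planned leaf marker, ssu2, matched no gene by name. The secondary wall cellulose synthase genes cesa10, cesa11 and cesa12 were below 0.5 CPM in every library, while lac3 (LOC732839), a laccase gene taken as another marker of secondary wall xylem, stood at 3.18 to 4.51 CPM. CPM does not correct for transcript length, and no transcript lengths of the authors' annotation were at hand. Levels and ranks of different genes are thus read counts, in which a longer transcript counts for more, and only changes of a gene between libraries are free of length.

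HRGP had more counts than any other gene in all 4 libraries. Its level was 5129, 5142, 5862 and 5858 CPM in replicates 1 to 4, with a mean of 5498 ± 418 CPM (SD, n = 4). Replicates 1 and 2 lay together below the mean and replicates 3 and 4 together above it, and the highest library was 1.14 times the lowest. As a share of all counts HRGP took 0.513% in replicate 1 (95% Wilson interval 0.510 to 0.516%) and 0.586% in replicate 3 (0.583 to 0.589%). These intervals cover counting error only, and they did not overlap. HRGP was also the one of the 4 genes with a value that was not whole, 136990.5 counts in replicate 4. A fraction of this kind can arise where a read is shared with another gene, and the sources used here do not say how shared reads were counted.

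grp1 ranked second in each library. Its level was 3841, 3806, 4083 and 4238 CPM in replicates 1 to 4, with a mean of 3992 ± 205 CPM (SD, n = 4). As for HRGP, replicates 3 and 4 were above replicates 1 and 2, with replicate 4 the highest for grp1. HRGP exceeded grp1 by 1506 ± 234 CPM (SD, n = 4), in 4 of 4 libraries. The next gene in rank was sus1 (LOC542247), for a sucrose synthase, which cleaves sucrose to UDP-glucose and fructose. grp1 was above sus1 in 4 of 4 libraries, but the difference, 222 ± 224 CPM (SD, n = 4), was no larger than its own spread.

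RGP ranked 11 in replicate 3 and 12 in the other 3 libraries. Its level was 1956, 1907, 2164 and 1915 CPM in replicates 1 to 4, with a mean of 1986 ± 121 CPM (SD, n = 4). Replicate 3 alone was high, and the others lay between 1907 and 1956 CPM. Its coefficient of variation (SD over mean, CV) was 6.08% with all libraries and 1.35% without replicate 3. In replicate 3 RGP lay 0.17 above the mean of the other libraries on the log2 scale. Of the 2202 genes at 100 CPM or more, 94.1% had a lower signed value there, falls of any size included. The middle 90% of these genes ran from -0.165 to 0.186. The same share in replicate 3 was 89.9% for HRGP, 72.1% for grp1 and 84.7% for bk4. In replicate 4 it was 94.2% for HRGP and 93.1% for grp1, and in replicate 2 it was 3.18% for HRGP and 8.49% for bk4. RGP was thus not alone in lying far from the middle. RGP was below the neighbouring gene eno1 (LOC732811), for the glycolytic enzyme enolase, in 3 of 4 libraries, with a difference of -55.5 ± 62.2 CPM (SD, n = 4) that did not exceed its spread. It was above TUA1 (LOC100037751), an alpha-tubulin gene of a family whose members can share reads, in 4 of 4 libraries, by 185 ± 55.3 CPM (SD, n = 4).

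bk4 stood far down the ranking. Its level was 122, 114, 125 and 115 CPM in replicates 1 to 4, with a mean of 119 ± 5.29 CPM (SD, n = 4). Replicates 1 and 3 were above the mean and replicates 2 and 4 below it. Its rank ran from 1622 in replicate 3 to 1864 in replicate 2, and was 1756 by mean level, within the top 5.44% of the 32260 genes with a count. The genes next to it in rank, LOC100281110 at 119 ± 8.44 CPM and LOC103646054 at 119 ± 4.57 CPM (SD, n = 4), could not be ordered against it, since bk4 was the higher in 2 and in 1 of 4 libraries. Such ranks are loose where levels are so close.

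**Figure D1:**
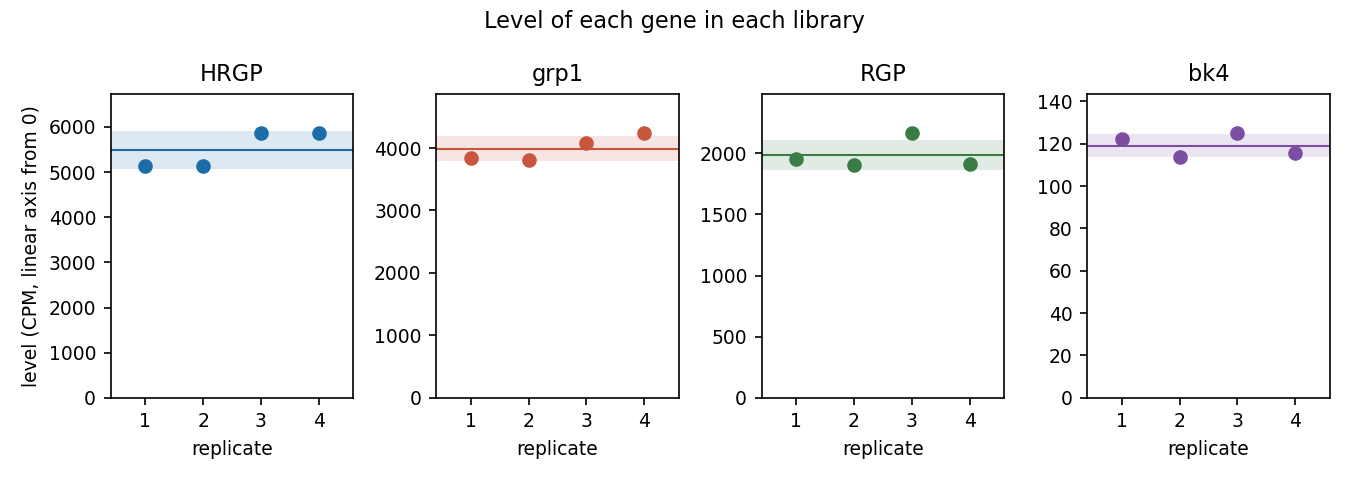
Level in CPM (linear axes from 0, a scale for each gene) against replicate for HRGP, grp1, RGP and bk4; points are libraries, the line is the mean and the band is 1 SD on either side. HRGP and grp1 are higher in replicates 3 and 4, RGP is high in replicate 3 alone, and bk4 is higher in replicates 1 and 3.

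The 4 genes together held 1.16 ± 0.0679% of all counts (SD, n = 4). The share was 1.10% in each of replicates 1 and 2, 1.22% in replicate 3 and 1.21% in replicate 4. HRGP alone gave 0.550 ± 0.0418% and grp1 0.399 ± 0.0205%, so the sum followed these genes. RGP gave 0.199 ± 0.0121% and bk4 0.0119 ± 0.000529%. In bulk tissue, fewer cells that express a gene and less of its RNA per cell cannot be told apart, so none of these shifts between libraries can be placed in a cell type.

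**Figure D2:**
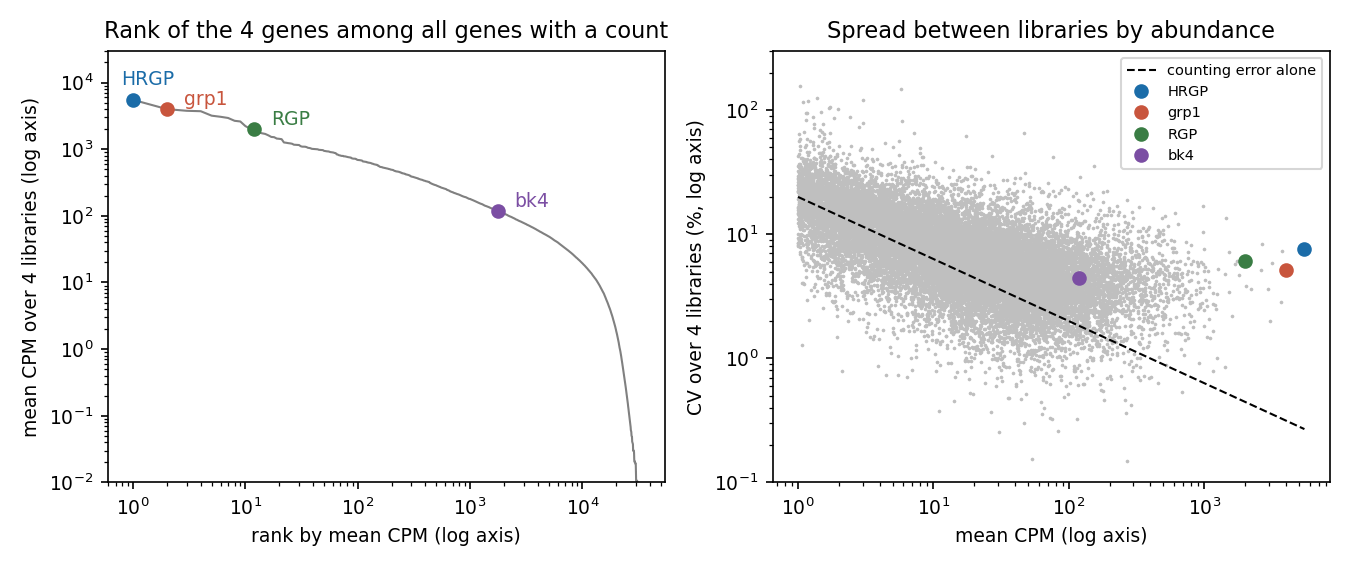
Left, mean CPM over 4 libraries against rank for all genes with a count (log axes); right, CV over 4 libraries against mean CPM for genes at 1 CPM or more (grey, log axes), with the CV that counting error alone would give (dashed). HRGP, grp1 and RGP sit at ranks 1, 2 and 12 and bk4 at 1756; the CVs of 4.44 to 7.61% lie above the dashed line and within the cloud of genes of like level or at its upper edge.

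All 4 genes varied between libraries by more than counting error, as most genes of such levels did. The counts of each gene in the 4 libraries were compared with Poisson error by a chi-square test, with reads taken as independent and p-values adjusted by Benjamini-Hochberg over 22752 genes scaled with edgeR. Of these genes 25.7% were called, and of the 2202 at 100 CPM or more 71.1% were called. Of the 43 at 1000 CPM or more, where HRGP, grp1 and RGP belong, 40 were called (93%). The calls are read against these shares: at such counts nearly any spread between separate samples exceeds counting error, so they say little about the 4 genes. The chi-square statistic was 2673 for HRGP, whose p was too small for the software to write as a number above 0. The adjusted p was 5.35e-189 for grp1, 2.58e-131 for RGP and 0.00228 for bk4 (chi-square, TMM scaling from edgeR). Without replicate 3 the adjusted p was 0.0259 for RGP and 0.146 for bk4, which ended the call for bk4, although its CV moved only from 4.44 to 3.70%. The CVs of HRGP and grp1 were no smaller without that library, at 7.76% and 6.06%.

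None of the 4 was called more variable than genes of its own abundance. The test set each gene's quasi-likelihood dispersion from edgeR against the trend over abundance. At an adjusted p of 0.05, 9 of 22752 genes (0.0396%) passed. At an unadjusted p of 0.05, which about 1 in 20 genes pass by chance alone, 1352 did. The HRGP dispersion was 3.34 times the trend, higher than for 92.1% of tested genes (unadjusted p = 0.0710, edgeR adjusted p = 0.899). It was 2.10 times the trend for RGP, 1.59 for grp1 and 1.11 for bk4, each with an edgeR adjusted p of 0.994. DESeq2 marked none of the 4 among its 174 dispersion outliers. With 4 libraries this does not show that they vary as other genes do. Among the 6 other genes within 2-fold of the HRGP level, none had a CV as large as its 7.61%, and their median was 4.37%. For RGP, 35 of 41 such genes had a smaller CV than its 6.08%. For grp1 it was 6 of 10 against 5.14%, and for bk4 1968 of 3436 against 4.44%.

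By the spread of their ratios within libraries, the 4 genes fell into pairs. The ratio of HRGP to grp1 was 1.34, 1.35, 1.44 and 1.38 in replicates 1 to 4, a CV of 3.22%. The ratio of RGP to bk4 was 16.0, 16.8, 17.3 and 16.6, a CV of 3.18%. Both were steadier than any ratio across the pairs, which had CVs from 6.66 to 7.84%. The ratio of HRGP to RGP was 2.62, 2.696, 2.71 and 3.06, and that of grp1 to RGP was 1.96, 2.00, 1.89 and 2.21. In each ratio of HRGP or grp1 to RGP or bk4, replicate 4 was the highest. A ratio within a library does not depend on the library total, so the scaling does not enter. The pairing was seen in these 4 libraries and no test was made on it. How often other genes of such levels hold as steady a ratio was not counted.

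**Figure D3:**
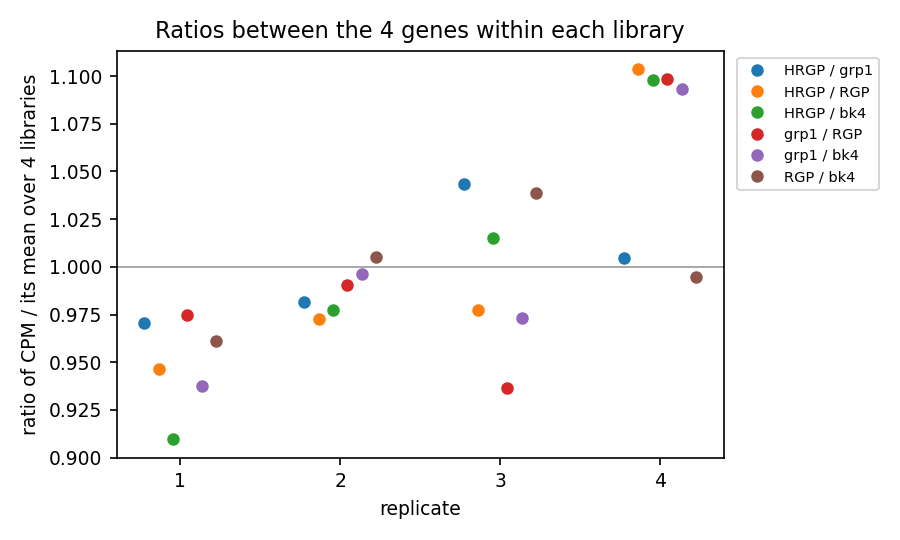
Each ratio of CPM between a pair of the 4 genes, divided by its own mean over the 4 libraries (linear axis that does not start at 0), against replicate; points are offset sideways for sight. The 4 ratios of HRGP or grp1 to RGP or bk4 are highest in replicate 4, while HRGP / grp1 and RGP / bk4 are highest in replicate 3.

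The genes whose pattern over libraries came nearest to each of the 4 were then taken from the other 2201 genes at 100 CPM or more. Likeness was the root-mean-square distance between values of log2(CPM / mean of the gene) over 4 libraries, and a smaller value is a closer match. Nearest to HRGP were LOC100281910 (0.00435), LOC100857041 (PP2C19, 0.0118) and LOC103632344 (0.0192), against a median distance of 0.109 over all these genes. LOC100281910 stood at 264, 265, 301 and 300 CPM, the same low pair and high pair as HRGP. Nearest to grp1 were LOC103645720 (0.00987), LOC100501984 (0.0113) and LOC103157010 (ACP, 0.0131), against a median of 0.0811. Nearest to RGP were LOC103627358 (0.00617), LOC100273476 (0.00654) and LOC542564, the primary wall cellulose synthase gene cesa2 (0.0116), against a median of 0.0911. cesa2 stood at 411, 404, 449 and 401 CPM, high in replicate 3 alone as RGP was. Nearest to bk4 were LOC100191673 (spr1, 0.00781), LOC103629196 (0.00836) and LOC100281207 (0.00950), against a median of 0.0745. Each distance rests on 4 values and describes these libraries only. The genes named were picked for the smallest of 2201 distances, so the likeness of their levels follows from the choice.

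Genes of like name had fewer counts than HRGP and grp1. A second gene bears the name HRGP, LOC100384565. Its levels in replicates 1 to 4 were 93.9, 97.0, 97.1 and 96.7 CPM. It did not share the low pair and high pair of HRGP, since replicate 2 was level with replicates 3 and 4. The remaining names of that list, prp4, PRP and prp2, stood at mean levels of 0.302 CPM or less, and prp4 also bears the name PR-1, of a defence protein, so name alone does not make it a wall gene. Among glycine-rich protein genes, GRP (LOC542562) stood at 343, 362, 370 and 418 CPM and grp3 (LOC101027116) at 102, 109, 106 and 134 CPM. Like grp1 they were highest in replicate 4, as were 27.6% of genes at 100 CPM or more and 23.5% of all detected genes. GRP5 had no count.

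The 7 other genes named for brittle stalks are relatives of bk2, not of bk4. Bk2L3 (LOC541793) was the highest at 518, 508, 559 and 497 CPM in replicates 1 to 4, followed by Bk2L4 (LOC100037798) at 84.2, 84.9, 96.7 and 86.8 CPM and Bk2L6 (LOC100037799) at 27.0, 32.2, 29.9 and 26.8 CPM. Bk2L3 and Bk2L4 were highest in replicate 3, as bk4 and RGP were. Bk2L7 stood at 0.296 CPM on average, and bk2 itself, Bk2L5 and Bk2L8 had no count in any library. bk2 is known for secondary walls. Of the 4 secondary wall markers, cesa10, cesa11 and cesa12 were near 0 as well and lac3 was not. Of 5 genes named chitinase or by the letters chi, LOC100283098 (chiA) led at 324 ± 26.5 CPM (SD, n = 4), ahead of LOC100274400 at 9.02 ± 1.05 CPM and LOC100216890 at 4.44 ± 0.895 CPM.

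Other lists of wall genes, built from gene names, show what surrounded the 4 genes. Over 13 lists, 35 of 66 genes other than the 4 reached 1 CPM in every library, against 20971 of all 48174 genes. All 9 cellulose synthase genes of the primary wall did, led by cesa2 at 416 ± 22.0 CPM, CesA-9 at 359 ± 16.5 CPM and cesa8 at 263 ± 12.97 CPM (SD, n = 4). Of the 3 of the secondary wall none did. Of 16 expansin genes, whose proteins loosen walls, 9 did, led by expB2 at 493 ± 49.7 CPM, expB8 at 67.1 ± 5.70 CPM and EXPA5 at 43.1 ± 3.54 CPM. Both cellulose synthase-like genes did, CslF6-1 (for mixed-linkage glucan) at 155 ± 19.8 CPM and CSLD1 at 94.5 ± 4.50 CPM. So did both genes of sugar donor supply, sm1 (RHM1, for rhamnose synthesis) at 21.7 ± 0.973 CPM and USP at 6.66 ± 0.489 CPM. Of 4 genes in the pectin enzyme list, exg1 alone reached it, at 900 ± 22.5 CPM. It entered by the letters of its symbol, which is that of an exoglucanase and not of a pectin enzyme. Of the others pme1 was near 0, and PG9 and PG14 had no count. Of 9 endoglucanase genes 2 did, Cel3 at 8.70 ± 0.739 CPM and Cel16 at 8.27 ± 1.51 CPM, and of the xyloglucan genes xth1 and xet1 neither did.

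Replicate 3 was the highest library for RGP and bk4, level with replicate 4 for HRGP, and the highest for most of the detected wall genes. Among the 35 detected list genes other than the 4, 22 (62.9%) were highest in replicate 3. Among all detected genes the share was 25.9%, and among those at 100 CPM or more 28.0%. This count was chosen after the values were seen. Of the other 13 of the 35, 5 were highest in replicate 1, 4 in replicate 2 and 4 in replicate 4, the last being GRP, grp3, exg1 and Cel16. Without the cellulose synthases of the primary wall, of which 8 of 9 were highest in replicate 3, it was 14 of 26 genes (53.8%). Replicate 3 was also the lowest library for 36.4% of genes at 100 CPM or more and for 31.0% of all detected genes. It was the lowest for 3 of the 5 markers of the root tip. Of these pcna1, for a DNA replication clamp, stood at 135, 122, 112 and 127 CPM in replicates 1 to 4. MCM6, for a replication helicase subunit, was at 131, 122, 110.0 and 131 CPM. SCR, a patterning gene, was also lowest there, at 37.3 CPM. RNRL1, for a ribonucleotide reductase subunit, was lowest in replicate 4 at 232 CPM, and PIN1a, for an auxin carrier, in replicate 2 at 189 CPM. The part of the cells that express these markers in the wall gene levels was not tested. With 1 library on one side, the shift has no replicate check.

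**Figure D4:**
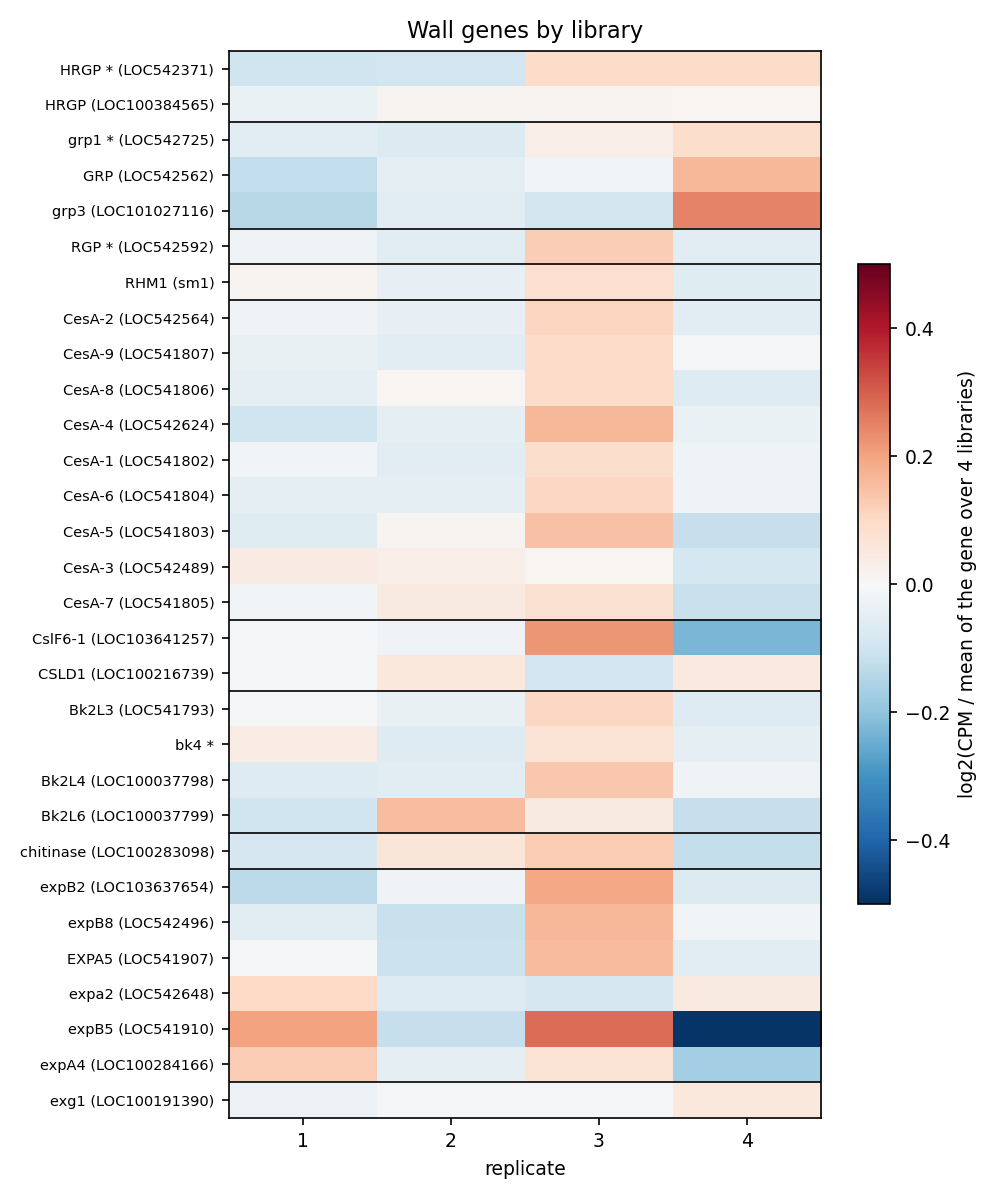
Level of 30 wall list genes with a mean of 10 CPM or more that reached 1 CPM in every library, as log2(CPM / mean of the gene over 4 libraries) in colour, by replicate; lines part the lists and a star marks the 4 genes. Replicate 3 is red for RGP, 8 of 9 primary wall cellulose synthase genes and Bk2L3, while the glycine-rich genes are reddest in replicate 4.

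In the gene order of the name table, no annotated gene overlapped any of the 4. The genes on either side of HRGP were long noncoding RNA genes, LOC118476316 at 61.4 to 80.1 CPM and LOC103646480 at 0 to 0.0428 CPM. The gene before grp1, LOC103640730, was at 0 to 0.214 CPM, and the gene after RGP, LOC103643672, was at 76.2 to 86.3 CPM. bk4 lay between LOC100284051, at 56.5 to 64.6 CPM, and mbd108, at 27.2 to 29.3 CPM. The high counts of HRGP, grp1 and RGP were thus not shared by the neighbours that had a count. The sources used here do not name the build behind the counts, so no positions are given.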

How the data were processed

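For each of 4 libraries, made from 1 µg of total RNA, the authors deposited estimated counts per gene, left unnormalized. The joint table matched the per-sample values. Tools named in the submitters' processing notes, with no role, are STAR 2.7.10b, HTSeq, UMI-tools, Trimmomatic (0.36 and 0.39), deepTools and SAMtools. The sources used here do not say how UMIs, strand or shared reads were handled. Of the nonzero values, 5.17% to 5.64% in a library were not whole within 0.001. If reads were not collapsed by UMI, the chi-square test, which takes them as independent, calls too many genes.

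CPM used the values as deposited and the library total. For tests, counts were rounded to whole numbers, filtered with filterByExpr and scaled by TMM (edgeR 4.0.16, R 4.3.3), leaving 22752 genes; DESeq2 1.42.0 was an alternative. Names were taken from a RefSeq gene table (assembly Zm-B73-REFERENCE-NAM-5.0) that matched 48127 of 48174 genes. Of 15 lists written as name patterns, 1 matched no gene (callose synthases) and 1 (arabinogalactan proteins) was dropped, since it matched starch synthesis genes. The members, lists and marker genes were chosen with earlier results of these data known. Named genes were the members, the 3 highest of each list, rank neighbours and the 3 nearest patterns. Others, such as list genes with no count, were named after their values were seen. Protein features, relatives by protein and levels per coding length were planned and not run, as no sequences were at hand.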

Additional observations from a re-analysis of the deposited data

Results flagged for a closer look

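With Dixon's criterion, the gap from a library to its nearest neighbour over the whole range of the 4, a library standing apart was looked for in 38 values: the level of each of the 4 genes, the share of counts of each list, and the highest genes of each list. Chance flags about 1 in 20, or 1.9 of 38, and 2 were found. The share of counts of the primary wall cellulose synthases reached 0.211% in replicate 3, where the others averaged 0.191% (gap over range 0.9215). The second gene named HRGP, LOC100384565, was lowest in replicate 1 at 93.9 CPM, where the others averaged 96.9 CPM (gap over range 0.8856). The criterion takes no account of counting error, and the spread of this gene was small, at 96.2 ± 1.54 CPM (SD, n = 4). For bk4, at 119 CPM, counting error alone gives a CV of 1.83%. For RGP itself, which was high in replicate 3, the gap was 0.811 of the range and did not pass the criterion.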

How the results depend on the processing

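Levels of HRGP, grp1, RGP and bk4 moved by less than their SD between replicates under TMM scaling, with totals over protein-coding genes and with each replicate left out. With a replicate left out, HRGP, grp1 and RGP stayed at ranks 1, 2 and 12, and bk4 ranked 1725 to 1799. The HRGP level was 5376 to 5621 CPM, grp1 3910 to 4054 CPM, RGP 1926 to 2012 CPM and bk4 117 to 121 CPM with a replicate left out. Leaving out 1 replicate gave 3073 to 5193 genes varying beyond counting error, the fewest without replicate 3, against 5848 with all. In that test the adjusted p of bk4 was 0.00179 to 0.146 with a replicate left out, the highest without replicate 3, and 0.00125 to 0.00328 under other scalings and without a filter. HRGP, grp1 and RGP kept their calls. The 9 genes of excess spread for their abundance became 494 when no filter was used, 2 under a non-robust prior and 174 by DESeq2's outlier rule. Leaving out replicates gave 2 to 100: 100 without replicate 3, 3 without replicate 4 and 2 without replicate 2. No setting called any of the 4 genes there, and the cause of these shifts was not tested. Detection at 0.5 CPM in place of 1 CPM changed the count of list genes by less than 1.5 times. Leaving out replicates for the CVs, and the count of list genes highest in replicate 3 with its forms under TMM scaling and without the cellulose synthases, were chosen after seeing the data. Depth limits bk4 most: counting error alone gives it a CV of 1.83%, against 0.270% for HRGP. No paired analysis was possible because there is 1 group.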

Other observations

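The distances between patterns over the 4 libraries were also read for whole lists, a reading chosen after their values were seen and given with no test. Of the 7 primary wall cellulose synthase genes at 100 CPM or more, 6 were among the 220 genes nearest to RGP, which are 10.0% of the 2201 compared. Of the same 7 genes, 2 were among the 220 nearest to HRGP and 2 among the 220 nearest to bk4. Bk2L3 and bk4 were both among the 220 nearest to RGP. For grp1, HRGP and exg1 were among the nearest 220, and none of the 7 cellulose synthase genes was. The list genes share libraries, and the distances rest on 4 points each.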
